A study of Caenorhabditis elegans with 6 samples.

Results

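Small RNAs bound to the germline Argonaute WAGO-4 were compared between Caenorhabditis elegans fed dsRNA of oma-1, the P0 generation, and animals that had no such dsRNA. The comparison rests on 2 of the 6 libraries of the study, 1 from P0 animals on oma-1 dsRNA and 1 from animals on HT115, the Escherichia coli strain used to feed dsRNA. Both groups carried 3xFLAG::GFP::WAGO-4 and were labelled as young adults kept at 20 °C, and in both the small RNAs were recovered with an anti-FLAG M2 antibody. The HT115 animals served as the reference without oma-1 dsRNA. Of the other libraries, the F1 and F3 descendants of fed animals and animals given lin-15b RNAi, all of the same genotype, are set side by side where they bear on a gene, and the first untreated library is used only as another reference. Every library is a precipitate, so a level is a share of the RNA that came down with the tagged protein. The growth notes of the P0 and HT115 libraries also speak of embryos held at several temperatures before extraction, which does not match the young adult label, and how they bear on the values was not tested.

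WAGO-4 is an Argonaute protein that works in the cytoplasm of germ cells and is needed for RNAi to be passed to offspring. It carries secondary small interfering RNAs, which RNA-dependent RNA polymerases copy from a target transcript and which are therefore antisense to it. Fed dsRNA is taken up and cut by Dicer, and the resulting primary small RNAs direct that copying. The target, oma-1, encodes a CCCH zinc-finger protein of oocytes that binds maternal mRNAs and acts with its paralog oma-2 in the last steps of oocyte maturation. Of the genes named beside it, moe-3 belongs to the same zinc-finger family, whereas vang-1 is a planar polarity gene and unc-22 encodes the giant muscle protein twitchin.

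Levels are antisense counts per 1000000 antisense reads (CPM) unless the sense strand is named, for which the sense total is used. The HT115 library held 7392235 antisense and 2108128 sense reads assigned to genes, and the P0 library held 6031076 and 2636659. The antisense share of reads was 77.8% on HT115 and 69.6% in P0. With 1 library a side there is no replicate check and no p-value, and the 95% intervals given beside values cover counting error only. Reads from PCR are not independent molecules, so the intervals may be too narrow even for that.

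Antisense small RNAs of oma-1 (WBGene00003864) stood in the middle of the measured genes on HT115 and near their head in P0. The HT115 library gave 96.5 CPM (exact Poisson interval 89.5 to 103.8) and P0 1439.9 CPM (1409.8 to 1470.5), from 713 and 8684 reads. F1 had 317 CPM, F3 had 197 CPM and lin-15b RNAi 105 CPM. The P0, F1 and F3 libraries all stood above both libraries without oma-1 dsRNA, and P0 stood highest of the 5. Ranked by antisense CPM, oma-1 held place 3262 on HT115 and place 20 in P0, then 645 in F1, 1553 in F3 and 2647 after lin-15b RNAi. Its level in P0 lay just under that of csr-1, the gene of another germline Argonaute, at 1457 CPM.

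At its HT115 level, P0 would have held 581.7 antisense reads of oma-1. The 8102 reads above that number made up 0.134% of the antisense reads of the library. Per kilobase of exon, the antisense level of oma-1 was 53.6 CPM on HT115, below the median of 71.6 over 5529 protein-coding genes, and 799 CPM in P0, where the median was 73.3. By that measure it was in place 3651 on HT115 and in place 35 in P0. The gene of the Argonaute itself, wago-4, stood at 713 and 716 CPM per kilobase in the same libraries.

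The sense strand of oma-1 was also higher in P0, but by far less. Sense reads numbered 361 on HT115 and 707 in P0, which is 171 CPM (154 to 190) and 268 CPM (249 to 289) of the sense total. The sense level was 172 CPM in F1, 170 CPM in F3 and 200 CPM after lin-15b RNAi, so P0 was the highest library on this strand as well. The sense fold of P0 over HT115 was 1.57 (exact conditional binomial interval 1.38 to 1.78), or 2.15 (1.89 to 2.44) when the reads were divided by the total of both strands. For the paralog oma-2, which has no such antisense gain, the sense fold was 1.33 (1.17 to 1.52). On HT115 66.4% of oma-1 reads were antisense (Wilson 95% bounds 63.5 and 69.1), and in P0 92.5% were (91.9 and 93.0). F1 had 69.8%, F3 75.4% and lin-15b RNAi 55.0%.

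**Figure D1:**
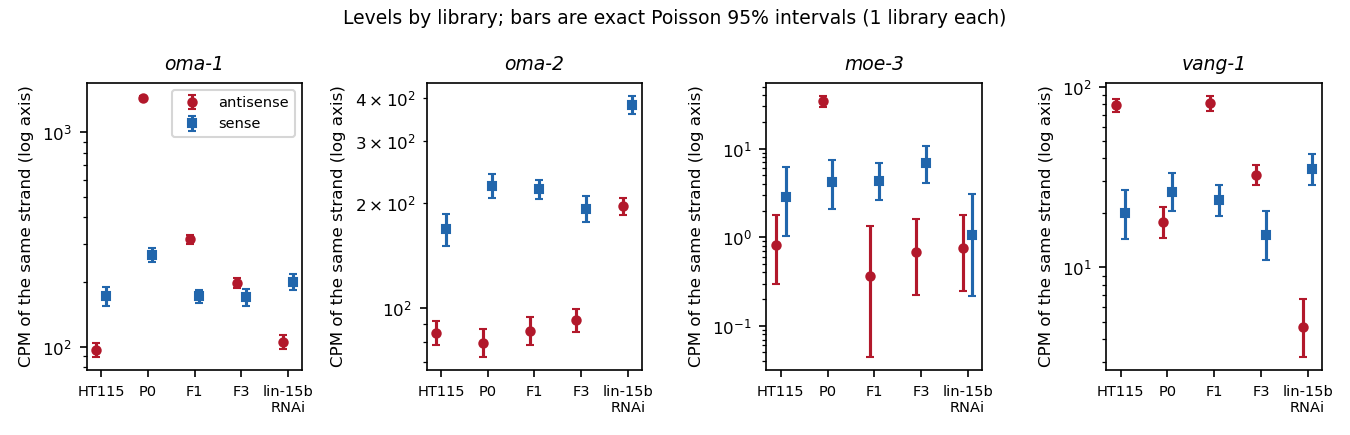
Antisense (red circles) and sense (blue squares) levels of oma-1, oma-2, moe-3 and vang-1 in the 5 libraries with strands kept apart, in CPM of the same strand on log axes; bars are exact Poisson 95% intervals. Antisense oma-1 stands at 1439.9 CPM in P0 against 96.5 on HT115, and antisense moe-3 at 34.3 CPM in P0 against less than 1 CPM elsewhere.

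The second gene with a large antisense gain was moe-3 (WBGene00003388). It had 6 antisense reads on HT115 and 207 in P0, which is 0.812 CPM (0.298 to 1.77) and 34.3 CPM (29.8 to 39.3). There were 2 reads in F1, 5 in F3 and 5 after lin-15b RNAi, so only P0 stood above 1 CPM. Sense reads of moe-3 numbered 6 on HT115 and 11 in P0, against 19 in F1, 19 in F3 and 3 after lin-15b RNAi. The antisense share of its reads was therefore 94.95% in P0 (91.2 to 97.2) and 9.52% in F1 (2.65 to 28.9). Per kilobase of exon the moe-3 level in P0 was 23.9 CPM, under the median of protein-coding genes, whereas on HT115 it was 0.565 CPM.

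Other zinc-finger genes of the family did not share this gain. Of 10 measured relatives, oma-1 and moe-3 included, 4 were higher and 6 lower in P0, and the remaining 8 lay between log2 ratios of -0.15 (mex-1) and 0.16 (ccch-3). The paralog oma-2 had 84.8 antisense CPM on HT115 and 79.4 in P0, beside 86.1 in F1, 92.2 in F3 and 196 after lin-15b RNAi, with a P0 to HT115 fold of 0.936 (0.830 to 1.06). The polarity regulators mex-5 (156 CPM on HT115 and 144 in P0) and mex-6 (204 and 195) lay slightly lower in P0. So did pie-1 (113 and 103.6) and the translational regulator pos-1 (44.5 and 43.6). The germline gene gla-3, the most abundant of the relatives on HT115, stood at 335 and 336 CPM. Of the mRNAs and partners that OMA-1 is known to act on, 8 were higher and 11 lower, 0 of 19 reached 1.5-fold, and the median log2 ratio was -0.05. They include the yolk receptor gene rme-2 (398 and 365 CPM), the poly(A) polymerase gene gld-2 (405 and 351) and the E3 ligase subunit gene zif-1 (99.8 and 109).

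Genes next to oma-1 did not share its gain. Within 20000 bp on either side, 5 genes were measured (spr-2, npp-23, C27B7.2, rad-54.L2 and egc-2). Their log2 ratios ran from -0.35 to 0.16. The median was -0.20, under the lower quartile of -0.07 over all measured genes, so as a set they lay somewhat lower in P0. Around moe-3 the 4 measured neighbours lay between 0.00 and 0.16. The annotation places oma-1 on chromosome IV at 8888976 to 8890999 on the plus strand and moe-3 on chromosome II at 13160415 to 13165733 on the minus strand (WBcel235, Ensembl annotation).

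Over the whole table the libraries were close. The 5866 genes with at least 25 CPM in one or both libraries were counted as measured. Their log2 ratios had a median of 0.02, an SD of 0.22 over genes and quartiles of -0.07 and 0.12. Genes at least 1.5-fold higher in P0 numbered 99 (1.69% of those measured), and genes at least 1.5-fold lower numbered 14 (0.239%). At 4-fold there were 2 genes higher, oma-1 and moe-3 (0.0341%), and 1 lower, vang-1 (0.017%). Just inside and outside the lower threshold the folds were 1.503 and 1.497. When antisense reads were divided by the total of both strands, the median log2 ratio of all measured genes moved to -0.15, and 22 genes were higher and 39 lower at 1.5-fold, so the split between the directions depends on the denominator.

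**Figure D2:**
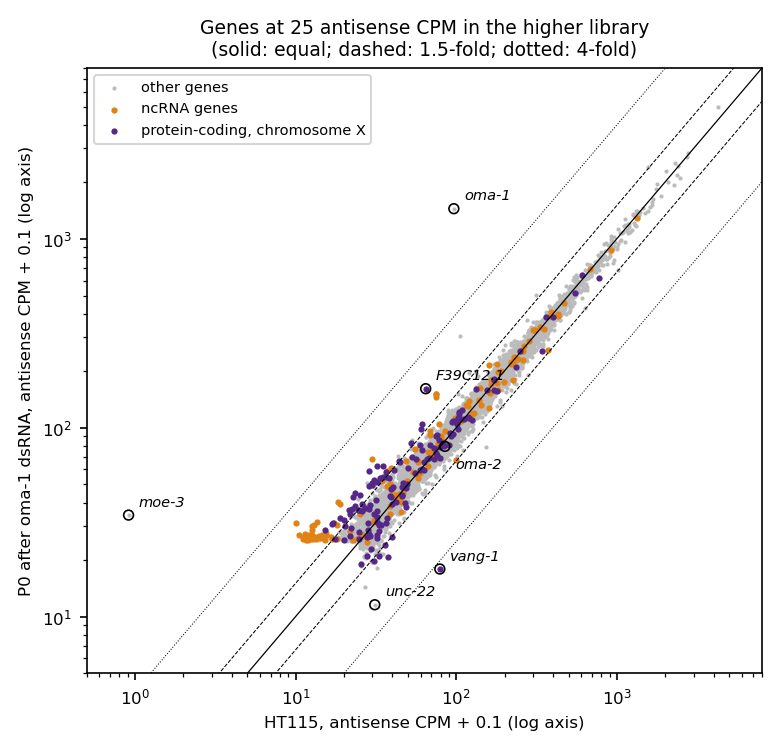
Antisense CPM of P0 against HT115 for genes at 25 CPM or more in the higher library, with 0.1 added for the log axes; purple points are protein-coding genes of chromosome X, orange points are ncRNA genes and grey points all others. oma-1 and moe-3 lie above the 4-fold line and vang-1 below it, and the points outside the 1.5-fold lines lie mostly at low levels.

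Small differences depended on abundance. Among protein-coding genes the median log2 ratio was 0.07 (SD 0.31) for 914 genes from 25 to 50 CPM, 0.05 for 1469 genes from 50 to 100 CPM and 0.02 for 1725 genes from 100 to 200 CPM. It was -0.01 for 1078 genes from 200 to 400 CPM and -0.04 for 294 genes from 400 to 800 CPM. Of the 52 protein-coding genes at least 1.5-fold higher, 49 had less than 100 CPM in the higher library, 2 lay from 100 to 200 CPM and 1, oma-1, lay above 800 CPM. Most genes at the head of the list in P0 also had high levels on HT115. The microtubule regulators cls-2 (2755 and 2837 CPM on HT115 and in P0) and klp-18 (2729.9 and 2714), the telomere-binding protein gene tebp-2 (2312 and 2517) and wago-4 (2400.5 and 2411) were numbers 2 to 5 in P0. The kinesin gene klp-7 stood at 2473 CPM on HT115 and 2102 in P0, and set-9 at 2362 and 2165.

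Requiring that P0 stand at least 1.5-fold above each of the 4 other libraries with strands kept apart left 9 of 5939 genes (0.152%), and 0 genes stood as far below all 4. By the same count HT115 had 3 above and 20 below, F1 51 and 8, F3 4 and 10, and lin-15b RNAi 791 and 1772. Besides oma-1 and moe-3 the 9 genes were T07F8.1, Y47G7B.2, C34C12.7, glr-2, lron-4, kxd-1 and pho-11, named here because they passed this count. Of the 9, moe-3, Y47G7B.2, C34C12.7, lron-4, kxd-1 and pho-11 were under 25 CPM in all 4 other libraries. They reached the minimum only through P0, so the count favours a high P0, and nothing is read from its size. The glutamate receptor gene glr-2 had 30.8 CPM on HT115, 48.1 in P0, 9.36 in F1, 11.2 in F3 and 14.2 after lin-15b RNAi. T07F8.1 had 27.9 CPM on HT115, 51.1 in P0, 17.2 in F1, 15.1 in F3 and 16.05 after lin-15b RNAi. In both genes HT115 was the second highest library and the descendants were low. In the 7 genes besides oma-1 and moe-3, the folds of P0 over HT115 ran from 1.51 (pho-11, interval 1.18 to 1.92) to 1.83 (T07F8.1, 1.53 to 2.20). When antisense reads were divided by the total of both strands, 2 genes were left, oma-1 and T07F8.1. By that total moe-3 had 23.9 reads per 1000000 in P0, under the minimum of 25, while its fold over HT115 was 37.8 (17.1 to 104.2).

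The 99 higher genes fell into a few kinds. There were 52 protein-coding genes, 43 genes that the tables class as ncRNA, 2 rRNA and 2 snoRNA genes. Of the 99, 60 were under 25 CPM on HT115 and reached the minimum only through P0. HT115 was the lowest of the 5 libraries in 38 of the 99 and P0 the highest in 20. F1 was the highest in 56. F1 and F3 both stood above HT115 in 87 of the 99 genes, but all 3 generations are set against the same HT115 library.

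Protein-coding genes of chromosome X were the largest group of the 52. The X chromosome is mostly silent in the C. elegans germline. Of 144 X-linked genes measured, 30 (20.8%) were at least 1.5-fold higher in P0 and 6 were lower, against 21 of 5385 (0.390%) and 7 on the autosomes. The X-linked and autosomal genes were not matched for level, and genes past the fold lay mostly at low levels. From 25 to 50 CPM, 31 of 914 protein-coding genes, X-linked ones included, were as far higher. HT115 was the lowest of the 5 libraries in 24 of these 30 X-linked genes and P0 the highest in 3. All 30 were above HT115 in both F1 and F3. The 30 were chosen as lower on HT115 than in P0, and 11 reached 25 CPM only through P0. The choice of genes therefore favours a low HT115, and nothing is read from these counts. The median levels of the 30 were 29.2 CPM on HT115 and 50.3 in P0, beside 52.2 in F1, 51.99 in F3 and 36.7 after lin-15b RNAi.

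The difference between X and autosomes was as large in genes chosen by their mean. Among protein-coding genes with a mean of 25 CPM over the 5 libraries, HT115 was the lowest library in 50 of 130 X-linked genes (38.5%) and in 459 of 5239 autosomal genes (8.76%). In this set 30 X-linked and 14 autosomal genes were at least 1.5-fold higher in P0, with median log2 ratios of 0.13 and 0.02. Against the same HT115 library the medians were 0.33 and -0.03 in F1 and 0.35 and -0.01 in F3. Summed over these X-linked genes HT115 had 10578 CPM and P0 11217, with 12229 in F1, 11703 in F3 and 15637 after lin-15b RNAi. Over all 2746 X-linked protein-coding genes, the summed level hardly differed, at 15533 CPM on HT115 and 15664 in P0 (fold 1.01, interval 1.00 to 1.02).

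F39C12.1 was the X-linked protein-coding gene with the largest fold. It had 64.4 CPM on HT115, 160.5 in P0, 133 in F1, 118 in F3 and 160 after lin-15b RNAi, so that HT115 alone was low. The synthetic multivulva gene lin-15A had 23.3 CPM on HT115, 44.9 in P0, 45.5 in F1, 54.6 in F3 and 46.3 after lin-15b RNAi. Its fold was 1.93 (1.59 to 2.35). The P granule gene meg-4 had 21.5 CPM on HT115, 36.3 in P0, 37.3 in F1, 36.4 in F3 and 29.4 after lin-15b RNAi. A pair of X-linked genes chosen after their values were seen also had HT115 as the lowest library. They were the dosage compensation and sex determination gene sdc-1, at 29.8 CPM on HT115 and 49.7 in P0, and the kinase gene cdk-11.2, at 32.2 and 62.3.

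The autosomal protein-coding genes past the fold had lower median levels in F1 and F3 than on HT115 and in P0. Leaving out oma-1 and moe-3, 19 were at least 1.5-fold higher in P0, from 1.503 (fbxa-11, interval 1.25 to 1.80) to 2.00 (W05H12.1, 1.55 to 2.60). With oma-1 and moe-3 included, P0 was the highest of the 5 libraries in 16 of 21, and the median was 23.1 CPM on HT115 and 37.1 in P0, against 17.6 in F1 and 18.1 in F3. Since 13 of the 21 were under 25 CPM on HT115 and reached the minimum only through P0, the choice of genes favours a high P0, and nothing is read from that count. F1 and F3 both stood above HT115 in 9 of the 21 genes and both below it in 10. The F-box gene fbxa-11 was lowest on HT115, with 29.9 CPM there, 44.9 in P0, 50.6 in F1, 51.7 in F3 and 57.4 after lin-15b RNAi. It was the only member of the F-box and BATH list past the fold.

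**Figure D3:**
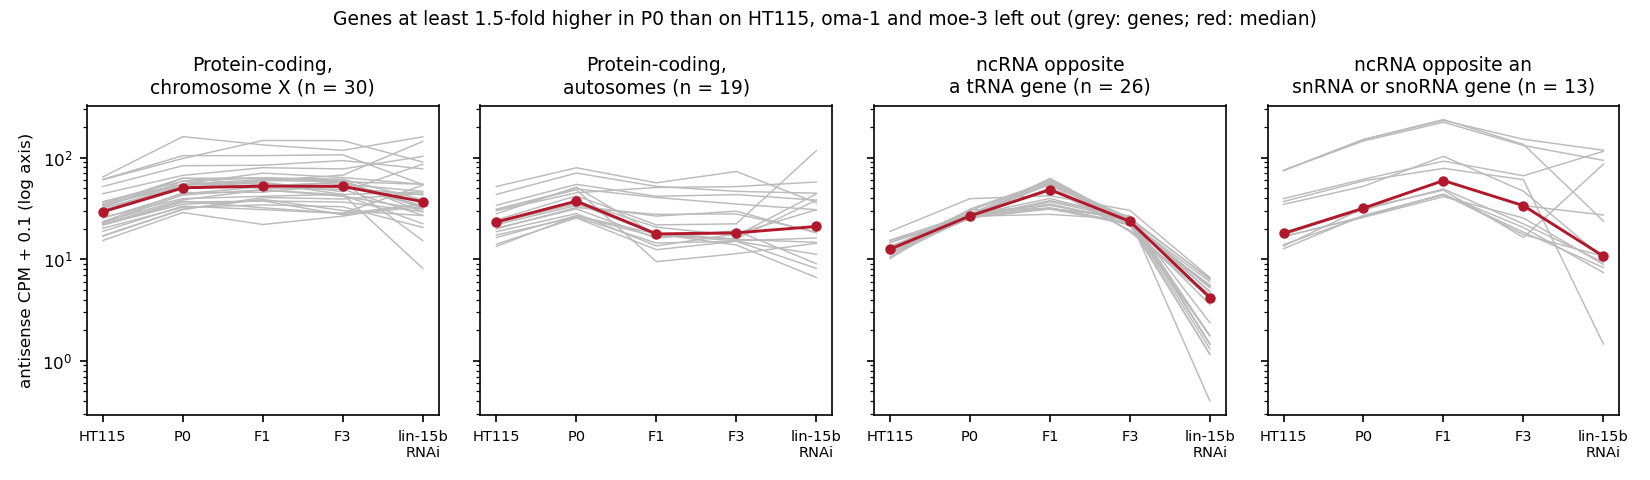
Antisense CPM, with 0.1 added for the log axis, in the 5 libraries for genes at least 1.5-fold higher in P0 than on HT115, without oma-1 and moe-3; grey lines are genes and red points medians, and the lines join separate libraries. The 30 X-linked genes, chosen as lower on HT115 than in P0, are also above HT115 in F1 and F3. The 26 ncRNA genes opposite tRNA genes are highest in F1.

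The 43 ncRNA genes lay mostly opposite genes of structural RNA, with 26 across from a tRNA gene and 13 across from an snRNA or snoRNA gene. A read antisense to such an ncRNA gene lies on the strand of the tRNA, snRNA or snoRNA. All 26 genes opposite tRNA genes were under 25 CPM on HT115, at most 18.7, and reached the minimum only through P0, so that they had to be higher there. They had medians of 12.4 CPM on HT115, 26.5 in P0, 48.2 in F1, 23.5 in F3 and 4.09 after lin-15b RNAi. Copies of one tRNA gene can share their sequence, so reads may be divided between these genes and they are not separate measurements. The highest fold was that of F02D10.11, with 10.0 CPM on HT115, 31.01 in P0, 58.3 in F1, 21.9 in F3 and 5.45 after lin-15b RNAi. Opposite snoRNA genes, Y39G10AR.26 had 74.5 CPM on HT115, 151 in P0, 232 in F1, 151 in F3 and 118 after lin-15b RNAi.

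Summed over all 353 ncRNA genes opposite tRNA genes, whether or not they reached the minimum, the antisense reads numbered 7468 on HT115 and 9369 in P0. That is 1.54-fold higher as a share of the antisense total (1.49 to 1.59). As a share of the sense total, which counts the reads of the tRNA genes themselves, it is 1.00-fold (0.973 to 1.03). The sense reads of the 351 tRNA genes opposite them numbered 4409 and 5444, a sense fold of 0.987 (0.949 to 1.03). For the 31 ncRNA genes opposite snoRNA genes the antisense fold was 1.64 (1.57 to 1.70) over the antisense total and 1.07 (1.02 to 1.11) over the sense total. For the 32 opposite snRNA genes these folds were 1.38 (1.32 to 1.45) and 0.901 (0.861 to 0.943). Sense reads were 22.2% of the HT115 library and 30.4% of P0. What part the strand totals have in the antisense folds of these ncRNA genes was not tested beyond these denominators.

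Ribosomal DNA genes of chromosome I were also high in F1. F31C3.15, which lies opposite rrn-1.1, had 1568 CPM on HT115, 2391 in P0, 5006 in F1, 2195 in F3 and 1724 after lin-15b RNAi. F31C3.14, the most abundant gene of both libraries, had 4231 CPM on HT115, 4944 in P0 and 9762 in F1. The snoRNA gene K07C10.2 had 106 antisense CPM on HT115 and 307 in P0, then 415 in F1, 205 in F3 and 78.4 after lin-15b RNAi. With B0334.12 (120 and 195 CPM) it was 1 of the 2 snoRNA genes past the fold. In all 4 of these genes F1 or F3 was higher than HT115, and in K07C10.2, F31C3.14 and F31C3.15 F1 was the highest library.

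Of the 14 lower genes, 13 were protein-coding and 6 of these were X-linked. HT115 was the highest of the 5 libraries in 9 of the 14, and P0 was the lowest in 1, the 5S rRNA gene rrn-4.3 (154 CPM on HT115 and 79.1 in P0). Most of the 14 were under 25 CPM in P0 and reached the minimum only through HT115. The choice of genes therefore favours a high HT115, and nothing is read from these counts. In vang-1, a planar polarity gene, F1 did not follow P0. It had 78.9 CPM on HT115, 17.7 in P0, 80.7 in F1, 32.6 in F3 and 4.69 after lin-15b RNAi, so P0 and F3 were low and F1 was not. The P0 level was 4.45 times lower than that on HT115 (fold 0.225, interval 0.181 to 0.277), whereas its sense level was 19.9 CPM on HT115 and 26.2 in P0. The muscle gene unc-22 had 30.98 CPM on HT115, 11.4 in P0, 15.4 in F1, 17.5 in F3 and 5.75 after lin-15b RNAi, with HT115 highest, and its sense level was 575 and 625 CPM. The spectrin gene sma-1 had 27.1 CPM on HT115, 14.3 in P0, 26.98 in F1, 16.01 in F3 and 12.9 after lin-15b RNAi. The other 10 genes had folds from 0.547 (Y7A5A.6) to 0.663 (col-60) and include the pyrimidine synthesis gene pyr-1 (35.04 and 21.4 CPM), the neuropeptide receptor gene npr-11 (32.9 and 20.7) and the transcriptional corepressor genes din-1 (33.8 and 21.4) and gei-8 (29.9 and 19.2).

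Genes with many antisense reads in one library and 0 in the other were missing from P0 more often than from HT115. With 0 reads on HT115 and at least 20 in P0 there were 0 genes, and with 0 reads in P0 and at least 20 on HT115 there were 6. With at least 8 reads the numbers were 3 and 93. Over all 45510 genes, 25049 had 0 antisense reads on HT115 and 28490 in P0. The read thresholds were not scaled to the depths of the libraries. A count of 0 in P0 allows up to 3 reads, or 0.497 CPM. Set against that floor, ras-1 (39 reads on HT115) was 10.6-fold lower in P0, ZK945.8 (36 reads) 9.79-fold and C27A7.3 (27 reads) 7.34-fold. These figures leave out the counting error of the HT115 reads. With it, the upper bounds of the P0 to HT115 folds were 0.122, 0.132 and 0.179, so the differences may be smaller. The other 3 were cab-1 and ZK858.2 with 21 reads each and sma-5 with 20. F1 and F3 held 1 to 10 reads of each of these 6 genes. More genes had an antisense read on HT115 (20461) than in P0 (17020), F1 (16890), F3 (18380) or after lin-15b RNAi (12862). In the same order the antisense totals were 7392235, 6031076, 5449458, 7308405 and 6605446 reads. These counts of genes did not follow depth in every library, and what part depth has in them was not tested.

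Small RNAs against the machinery of RNAi itself hardly differed. Of the measured genes for dsRNA uptake and primary RNAi, 12 of 17 were higher in P0, with a median log2 ratio of 0.05 and 0 past 1.5-fold. Beside them, 3249 of all 5866 genes were higher and the median was 0.02. The dsRNA channel gene sid-1 had 1358 CPM on HT115 and 1378 in P0, the Dicer gene dcr-1 had 260 and 258, and the primary Argonaute gene rde-1 had 200.3 and 209. The furthest from 0 was eri-1, a nuclease gene, at 144 and 164 CPM. Of the RNA-dependent RNA polymerase and mutator genes, 9 of 14 were higher, with a median of 0.05. They include the germline polymerase gene ego-1 (553 and 612 CPM), the somatic polymerase gene rrf-1 (386 and 409), mut-15 (480 and 561) and rrf-2 (30.98 and 39.96), the furthest from 0.

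Among the Argonaute genes 7 of 13 were higher, with a median of 0.00. The levels on HT115 and in P0 were 2400.5 and 2411 CPM for wago-4, 1759.7 and 1839 for the piRNA Argonaute gene prg-1, 932 and 899 for the nuclear Argonaute gene hrde-1 and 274 and 254 for ergo-1. Nuclear RNAi and inheritance genes were higher in 14 of 22, with a median of 0.04, and nrde-4 (102.5 and 116.2 CPM) was furthest from 0. P granule and Z granule genes were higher in 11 of 22, with a median of 0.00. Apart from meg-4, the furthest was the translation factor gene ife-1, at 124 and 95.7 CPM, while znfx-1, whose helicase marks the Z granule, had 922 and 991. Heterochromatin and synthetic multivulva genes were higher in 8 of 20, with a median of 0.00, and lin-15A was their only member past the fold. When antisense reads were divided by the total of both strands the medians of these lists lay between -0.17 and -0.11, beside -0.15 for all genes.

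Ribosomal protein genes were the list with the most one-sided antisense ratios. In P0, 66 of 69 were lower and 3 higher, 0 past 1.5-fold, with a median log2 ratio of -0.21. The lowest was rpl-4, with 219 CPM on HT115, 158 in P0, 210.1 in F1, 158 in F3 and 52.4 after lin-15b RNAi (fold 0.721, interval 0.664 to 0.781). Next came rps-8, with 234 CPM on HT115, 170.0 in P0, 213 in F1, 170 in F3 and 126 after lin-15b RNAi. In both genes P0 and F3 were low and F1 lay near HT115. The paralog rpl-11.1, one of the most abundant of the list, had 560.0 and 560.3 CPM. On the sense strand the direction was the other way, with 63 of 76 genes higher in P0, a median of 0.30 and 6 past 1.5-fold, beside a median of 0.12 over all 5703 genes measured on that strand. Summed over the list, the antisense fold was 0.864 (0.855 to 0.873) and the sense fold 1.17 (1.15 to 1.18). With both strands added together the list median was 0.24, so the antisense direction does not hold there. The list median also changed sign against the lin-15b RNAi library and, with both strands together, against the first untreated library.

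ERGO-1 target genes, which have small RNAs of another pathway, were lower in 8 of 9, with a median of -0.20 and 0 past 1.5-fold. E01G4.5 had 206 CPM on HT115 and 162 in P0, C44B11.6 had 514 and 429, and C18D4.6, the exception, had 57.9 and 73.6. Summed over the list, HT115 had 1833 CPM and P0 1599, with 1198 in F1, 1164 in F3 and 793 after lin-15b RNAi, so that HT115 was the highest and P0 the next. Kinetochore, spindle and centrosome genes were lower in 24 of 36 (median -0.05), among them knl-2 (500.0 and 411 CPM). Meiosis and synapsis genes were higher in 21 of 30 (median 0.04), and zhp-3 (124 and 105) went the other way. Heat shock and stress genes were lower in 10 of 13 (median -0.06), with the mitochondrial chaperone genes hsp-6 (375 and 293) and hsp-60 (944 and 746) furthest. Histone genes were higher in 14 of 17 (median 0.09) and F-box and BATH genes in 60 of 71 (median 0.12), and both lists hold near-identical copies between which reads may be divided. Divided by the total of both strands, the medians of the meiosis, histone and F-box and BATH lists were -0.12, -0.09 and -0.06, and that of the X-linked genes was -0.08, all above the -0.15 of all genes. The histone H1 gene his-24 (774 and 620.0 CPM) was the lowest of its list.

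**Figure D4:**
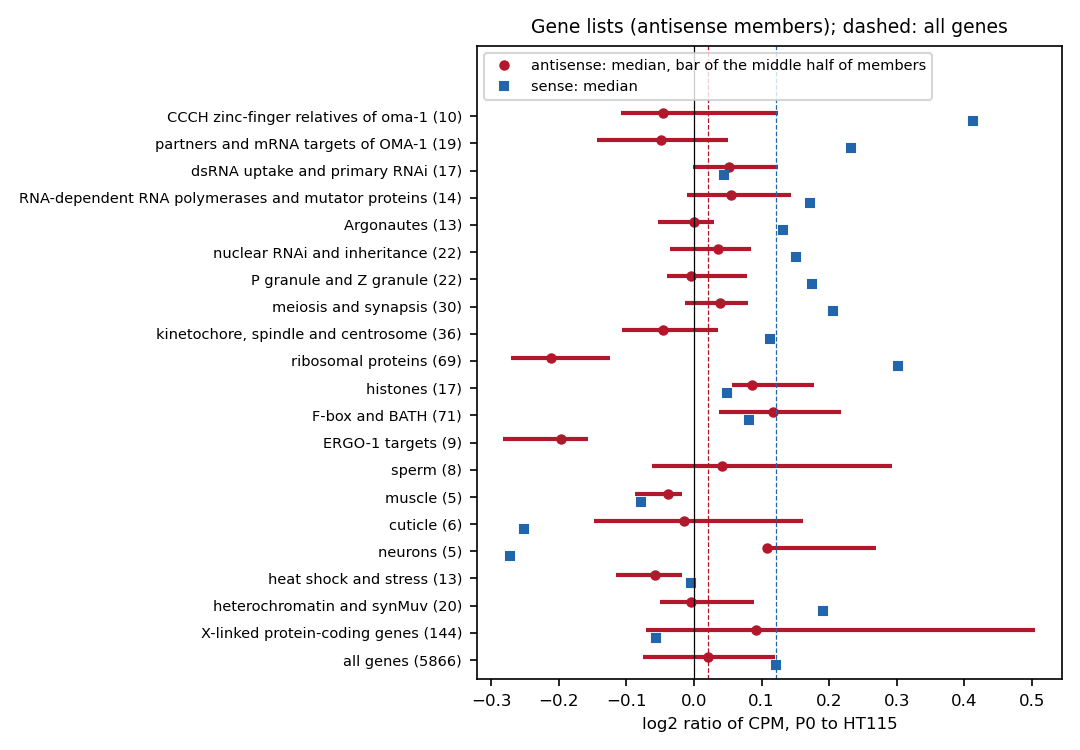
Median log2 ratio of P0 to HT115 for 20 gene lists and all genes, with the number of members measured on the antisense strand in brackets; red circles are antisense medians with bars from the lower to the upper quartile of members, and blue squares are sense medians for lists with at least 5 members measured. Ribosomal protein genes have the lowest antisense median, -0.21, and a sense median of 0.30.

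Markers of other tissues had few antisense reads. Summed over each list, the intestine, muscle and cuticle genes were lower in P0. The neuron and sperm genes hardly differed, with folds of 1.01 (0.961 to 1.06) and 1.02 (0.972 to 1.07). Of 24 intestine genes 0 were measured, 6 had 0 antisense reads in each library, and their summed level was 20.97 CPM on HT115 and 9.45 in P0, beside 11.01 in F1, 10.9 in F3 and 13.9 after lin-15b RNAi. The HT115 and P0 levels rest on 155 and 57 reads. On the sense strand the same genes made up 54422 CPM on HT115 and 50685 in P0, most of it from the yolk protein genes (vit-6 alone had 19619 on HT115). Muscle genes summed to 513 antisense CPM on HT115, 425 in P0, 404 in F1, 385 in F3 and 289 after lin-15b RNAi, with 5 of 23 measured and a median of -0.04. Cuticle genes summed to 564 CPM on HT115 and 506 in P0, with 6 of 166 measured (median -0.01), 25 at 0 reads on HT115 and 48 in P0. Neuron genes summed to 464 and 469 CPM, with 5 of 134 measured (median 0.11) and 35 and 62 at 0. Sperm genes summed to 538 and 547 CPM, with 8 of 83 measured (median 0.04) and 25 and 34 at 0. The part that these tissues have in the lower levels of unc-22 and col-60 was not tested. In whole precipitates, fewer cells of a tissue and less small RNA per cell cannot be told apart.

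On the sense strand the spread between the libraries was wider. The sense totals were smaller than the antisense totals in both libraries, so the same minimum in CPM stands for fewer reads. Counting error is therefore larger near the minimum on this strand, and its part in the wider spread was not tested. Of 5703 genes measured there, 274 were at least 1.5-fold higher in P0 (4.8%) and 271 at least 1.5-fold lower (4.75%), with an SD of 0.38 over genes. At 4-fold 14 were lower (0.245%) and 0 higher. Divided by the total of both strands, 1153 genes were 1.5-fold higher and 20 lower, so here too the split between the directions depends on the denominator. Across the 4189 genes measured on both strands, the log2 ratios of the strands had a Pearson correlation of 0.07 over genes, which are not independent of each other. The lowest was M04G7.2, with 27.04 sense CPM on HT115, 0.759 in P0, 4.83 in F1, 14.5 in F3 and 0 after lin-15b RNAi. The tyrosine kinase gene kin-26 had 167 CPM on HT115, 23.1 in P0, 12.4 in F1, 41.2 in F3 and 0 after lin-15b RNAi. The transcription factor gene hlh-11, chosen after its value was seen, had 172 CPM on HT115, 35.3 in P0, 30.8 in F1, 124 in F3 and 27.2 after lin-15b RNAi. In all 3 genes HT115 was the highest library. They were chosen as far lower in P0 than on HT115, and M04G7.2 and kin-26 reached the minimum only through HT115. The choice of genes therefore favours a high HT115, and nothing is read from this. The antisense levels of M04G7.2 and kin-26 were under 1 CPM on HT115, while hlh-11 had 71.0 and 71.5 antisense CPM on HT115 and in P0.

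Small structural and regulatory RNAs differed as groups on this strand, as shares of the sense total. Over the total of both strands every sense fold is higher, as for oma-1 above, so the size of these differences depends on the denominator. Group folds over that total were not computed. The 16 genes of 5S rRNA summed to 2145 sense CPM on HT115, 883 in P0, 827 in F1, 1586 in F3 and 6541 after lin-15b RNAi, a P0 to HT115 fold of 0.412 (0.391 to 0.433). The piRNA genes summed to 1487 CPM on HT115, 512 in P0, 307 in F1, 1305 in F3 and 3925 after lin-15b RNAi (fold 0.345, 0.323 to 0.367). MicroRNA genes were lower in 47 of 53 measured, with a median log2 ratio of -0.42. Their summed sense reads numbered 49420 on HT115 and 43716 in P0. The libraries held 9500363 and 8667735 reads on both strands together. The embryonic microRNA mir-35, the most abundant on HT115, had 3023 CPM there and 1885 in P0, and mir-71 had 1985 and 849. The snoRNA genes went the other way, with 59 of 79 higher, 31 past 1.5-fold and a median of 0.40. The largest sense fold of the table was that of the snoRNA gene C05H8.3, with 256 CPM on HT115, 798 in P0, 623 in F1, 481 in F3 and 73.7 after lin-15b RNAi (fold 3.12, 2.83 to 3.43). It was followed by ZK484.9, with 104.4 CPM on HT115, 295 in P0, 262 in F1, 181 in F3 and 8.82 after lin-15b RNAi. Both stood above HT115 in all 3 generations, but they were chosen as highest in P0 against HT115, which favours a low HT115.

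**Figure D5:**
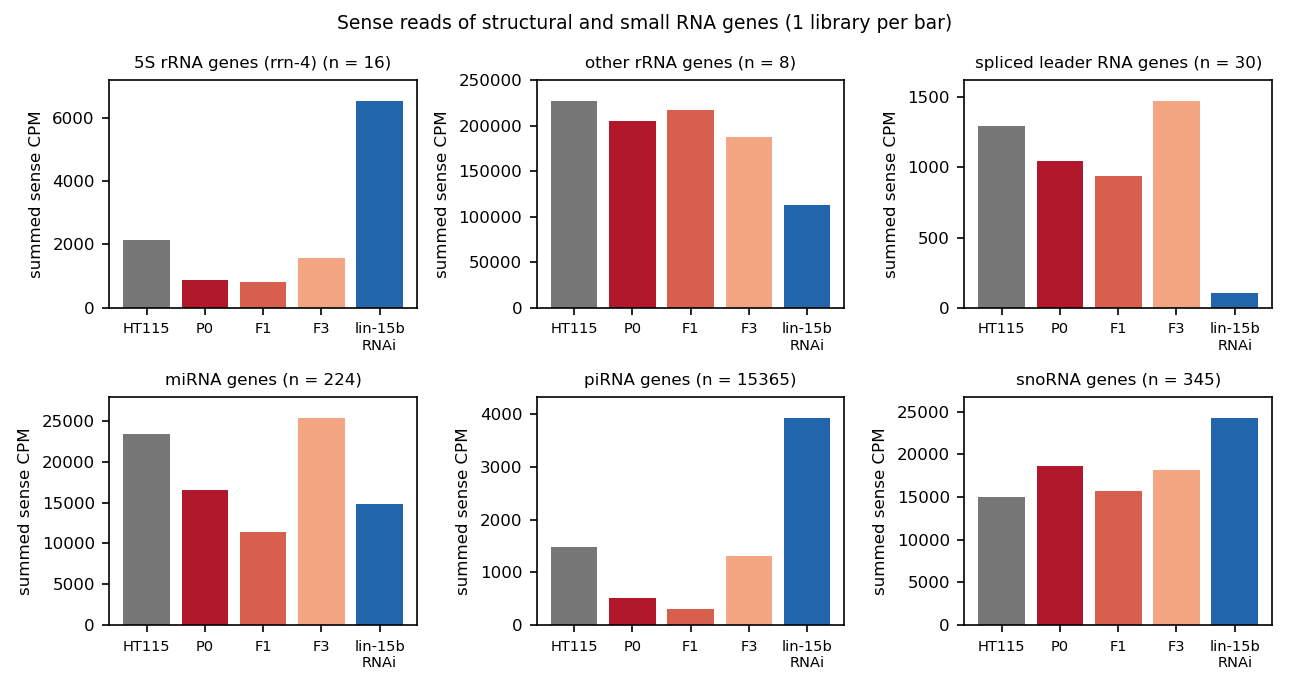
Summed sense CPM of 6 groups of structural and small RNA genes in the 5 libraries, 1 library per bar, each panel on its own linear axis from 0. P0 lies below HT115 for 5S rRNA (883 against 2145) and piRNA genes (512 against 1487) and above it for snoRNA genes (18630 against 14945).

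Protein-coding genes took 94.7% of antisense reads on HT115 (94.68 to 94.71) and 94.5% in P0 (94.44 to 94.48). Transposon genes took 1.55% and 1.54%, and 0 of 113 measured transposon genes reached 1.5-fold in either direction. Genes classed as ncRNA took 1.94% and 2.04%, and lincRNA genes 0.705% and 0.657%. The 39223 genes that stayed under 25 CPM in all 5 libraries held 2.69% of antisense reads on HT115, 2.57% in P0, 2.29% in F1, 2.16% in F3 and 1.62% after lin-15b RNAi, so the low tail was thickest on HT115.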

How the data were processed

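Each deposited table holds counts of reads per annotated transcript, 1 table per library, made by the authors; the submitters' processing notes name Bowtie2. Not given in the sources used here are the Bowtie2 version, genome build, annotation and counter. Libraries held RNA of 17 to 30 nt per the labels' protocols. The count columns carry no names, and the strand was judged from microRNA genes (0.417% antisense on HT115, 0.356% in P0). Counts were summed per gene (45510 genes; 44852 found in Ensembl's WBcel235 annotation) and used as deposited by the authors, without the 3 lines that carry no gene (0.000189% and 0.000288% of reads). They were divided by the total of their strand in that library. The tables of the lin-15b RNAi and first untreated libraries hold 45162 genes.

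Log2 ratios had 0.5 added to each count. Intervals are at 95%. A fold threshold of 1.5 or 4 is a size rule, not a test, since each group has 1 library. On simulated counts with counting error only, the fold and interval code returned the folds that had been set. Those folds were larger than 1.5 and the genes lay above the 25 CPM minimum. Set folds near 1.5 and levels near 25 CPM were not simulated. Members, the 21 gene lists and thresholds were chosen with earlier results of these data known. List entries without a gene were mut-8, cde-1, wago-3, C40A11.10, H16D19.4 and C36E8.1. Named genes are oma-1, oma-2, moe-3 and wago-4, the 15 highest and 15 lowest antisense and 10 highest and 10 lowest sense ratios, the 10 most abundant genes of P0, up to 5 genes at 0 on each side, and 2 abundant and 2 outlying members of each list; hlh-11, sdc-1, cdk-11.2, mir-71, mex-5, mex-6, pie-1, pos-1, rme-2, zif-1, dcr-1, rde-1, rrf-1, hrde-1, znfx-1 and the genes of the count against 4 libraries fall outside this rule and were chosen after their values were seen. Sequence shared with oma-1 and base sequences are not reported, as no genome was used here. Python 3.11.15, scipy 1.17.1, pandas 2.3.3 and edgeR 4.0.16 (TMM scaling only) were used.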

Additional observations from a re-analysis of the deposited data

How the results depend on the processing

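No paired analysis was possible because each group has 1 library. Median-of-ratios scaling, TMM scaling, a pseudocount of 5 and the planned minimum levels kept the direction of the named antisense ratios tried, except that wago-4, which lies at 0.01, changed sign under both scalings. The antisense log2 ratio of oma-1, 3.90 as reported, was 3.74 over the total of both strands, 3.26 with both strands summed and 3.35 against the first untreated library, whose table has both strands together.

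Counts of genes moved more. Over the total of both strands, 22 genes were 1.5-fold higher and 39 lower, with 1 at 4-fold higher. With no minimum level the numbers were 3186 and 7249 at 1.5-fold and 398 and 2475 at 4-fold, and with 100 CPM they were 10 and 1, then 1 and 0. Both strands summed gave 32 lower. Protein-coding genes alone gave 56 higher at 1.5-fold and 2 lower at 4-fold, and totals without the 20 most abundant genes and oma-1 also gave 2. Against lin-15b RNAi there were 2275 higher and 895 lower at 1.5-fold and 180 and 113 at 4-fold. Against the untreated library they were 2297, 1073, 216 and 183. The cause was not tested.

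Ratios that changed sign were, with both strands summed, unc-22 (0.39), sma-1 (0.16), pyr-1 (0.15) and W07E11.1 (0.28), as well as oma-2 (0.26, from -0.09) and wago-4 (-0.06, from 0.01). Against lin-15b RNAi they were npr-11 (2.91), vang-1 (1.92), unc-22 (1.00), din-1 (0.48), pyr-1 (0.33), sma-1 (0.17), F49B2.3 (0.17), W07E11.1 (0.15), gei-8 (0.26), ZK1073.1 (0.16), C07D8.6 (1.08) and F10D2.15 (-1.42), and K02F6.7 (0.56, from -0.58). Against the untreated library they were vang-1 (1.14), unc-22 (1.35), rrn-4.3 (0.090), sma-1 (0.84), pyr-1 (0.26), npr-11 (1.33), W07E11.1 (0.77), gei-8 (0.051), C07D8.6 (0.45), F10D2.15 (-0.066) and F39C12.1 (-0.37).

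Alternatives chosen after seeing the data were run for the sense counts and for the count against 4 libraries. Sense counts over the total of both strands gave 1153 higher, 20 lower and 1 at 4-fold in each direction, and a minimum of 100 CPM gave 47, 71 and 2 lower at 4-fold. The 9 genes above each of 4 libraries became 2 over both strands, 1 at 100 CPM and 4 with both strands summed. Over both strands moe-3 was lost through the minimum level alone (23.9 reads per 1000000 in P0), with a fold of 37.8.

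With 1 library a side, no difference has a replicate check, no input or untagged control was analysed here, and the depth limits ratios of genes near the floor of 3 counts (0.406 CPM on HT115 and 0.497 in P0).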
